A study of Mus musculus with 8 samples.

Results

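The TAM receptors Tyro3, Axl and Mertk with their ligands Gas6 and Pros1, and the receptors Alk and Ltk with the growth factors Ptn and Mdk, were examined in Neuro2a cells, an established mouse neuroblastoma line. These 9 genes were chosen by name, out of 19938 genes measured by a transcript cluster (a probe group of the array) that carries a single gene symbol, and each of the 9 had 1 such cluster. Arrays came from 4 cultures of anchorage dependent (AD) cells, grown attached in DMEM with fetal bovine serum, and from 4 of anchorage independent (AI) cells, grown as detached tumorspheres in NeuroCult NSC medium, which held EGF, bFGF and heparin but no serum. Both phenotypes come from the same line, derived from AJ mice, and attachment and medium differ together and cannot be told apart. Signals are log2 values as the authors deposited them, ratios are AD over AI, and a gene is called higher or lower where limma's adjusted p is under 0.05 and the ratio is at least 1.5-fold.

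TAM receptors are tyrosine kinases that sense Gas6 and protein S (Pros1), vitamin K dependent proteins that bridge the receptor to phosphatidylserine on the surface of dying cells or debris. They are known for the clearance of dead cells by macrophages and for survival signaling in tumors, and Tyro3 is the member most associated with the nervous system. Alk and Ltk form a small receptor family whose activating ligands are Alkal1 and Alkal2, and activating mutations of human ALK drive a share of neuroblastomas. Ptn (pleiotrophin) and Mdk (midkine) are related heparin-binding growth factors of the developing nervous system that have been described as ligands of Alk and also bind other receptors, among them Ptprz1.

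Of the 9 genes, Tyro3 was called higher in AD cells, Gas6 was called lower in AD cells and 7 were not called. Across all 35556 transcript clusters 1.39% were called higher and 2.53% lower, and 3.93% in either direction. Of all called clusters 64.5% were lower in AD cells, and 47% with median centring of the arrays. The median log2 ratio was -0.04 over the 9 genes, with 2 positive and 7 negative, and -0.00078 over all clusters. Since these are bulk samples, fewer cells that express a gene and less RNA of it per cell cannot be told apart. The arrays of AD and AI cells did not overlap for 3 of the 9 genes (Tyro3, Gas6 and Axl), where 22.1% of all clusters did not overlap.

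The array gives no detection flag in the table used here, so the clusters of 1027 olfactory receptor genes, which a neuroblastoma line has little reason to express, served as a measure of background. Their 95th percentile lay at 5.47 to 5.73 log2 on the AD arrays and at 5.58 to 5.71 log2 on the AI arrays. Tyro3, Gas6, Alk, Ltk and Ptn exceeded it on all 8 arrays, Axl on 0 AD arrays and 3 AI arrays, and Mertk, Pros1 and Mdk on none. Whether such a dim gene is expressed was not settled by these values. The median log2 ratio of these 1027 genes was -0.04.

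The labelled cell type was checked against neuroblast markers, of which 14 of the 15 measured exceeded that background on all 8 arrays, Hand1 being the exception. Their mean signal was 9.17 to 9.28 log2 in AD arrays and 8.71 to 8.82 log2 in AI arrays, and 4 of the 15 (Phox2a, Th, Dbh and Mycn) were called higher in AD cells and none lower, where 1.39% and 2.53% of all clusters were. At any fold 7 of the 15 were higher and 2 were lower in AD cells, the lower ones being Chgb at -0.49 (adjusted p = 0.000204, limma) and Gata2 at -0.23 (adjusted p = 0.0376, limma) on the log2 scale, named after their values were seen. The part of these markers in the results was not tested. Of 11 markers of macrophages, where TAM receptors are prominent, 0 exceeded background on all arrays of a phenotype, with a mean of 5.00 to 5.2 log2 in AD arrays and 5.12 to 5.15 log2 in AI arrays. Of the Schwann cell markers 2 of 6 did (Erbb3 and Pmp22), of the fibroblast markers 3 of 8 (Col1a1, Pdgfra and Fbln1) and of the endothelial markers 2 of 7 (Pecam1 and Vwf), and none of these lists held a called gene. At any fold the Schwann, fibroblast and endothelial lists each had 1 gene lower in AD cells and none higher, where 9.62% and 8.5% of all clusters were. These were Erbb3 at -0.52, Fbln1 at -0.22 and Vwf at -0.40 on the log2 scale (adjusted p = 0.0017, 0.0141 and 0.00274, limma). AD replicate 4 stood apart in 20 genes of DNA replication, which averaged 9.19 log2 there. They averaged 9.65 to 9.75 log2 in the other AD arrays and 8.78 to 9.04 log2 in AI arrays. This array differed in other ways too. The median of its olfactory receptor genes was 5.11 log2, against 4.93 to 5.00 log2 in the other AD arrays and 5.01 to 5.09 log2 in AI arrays. Its array weight in limma was the lowest, at 0.35, where the other arrays had 0.77 to 1.76.

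**Figure D1:**
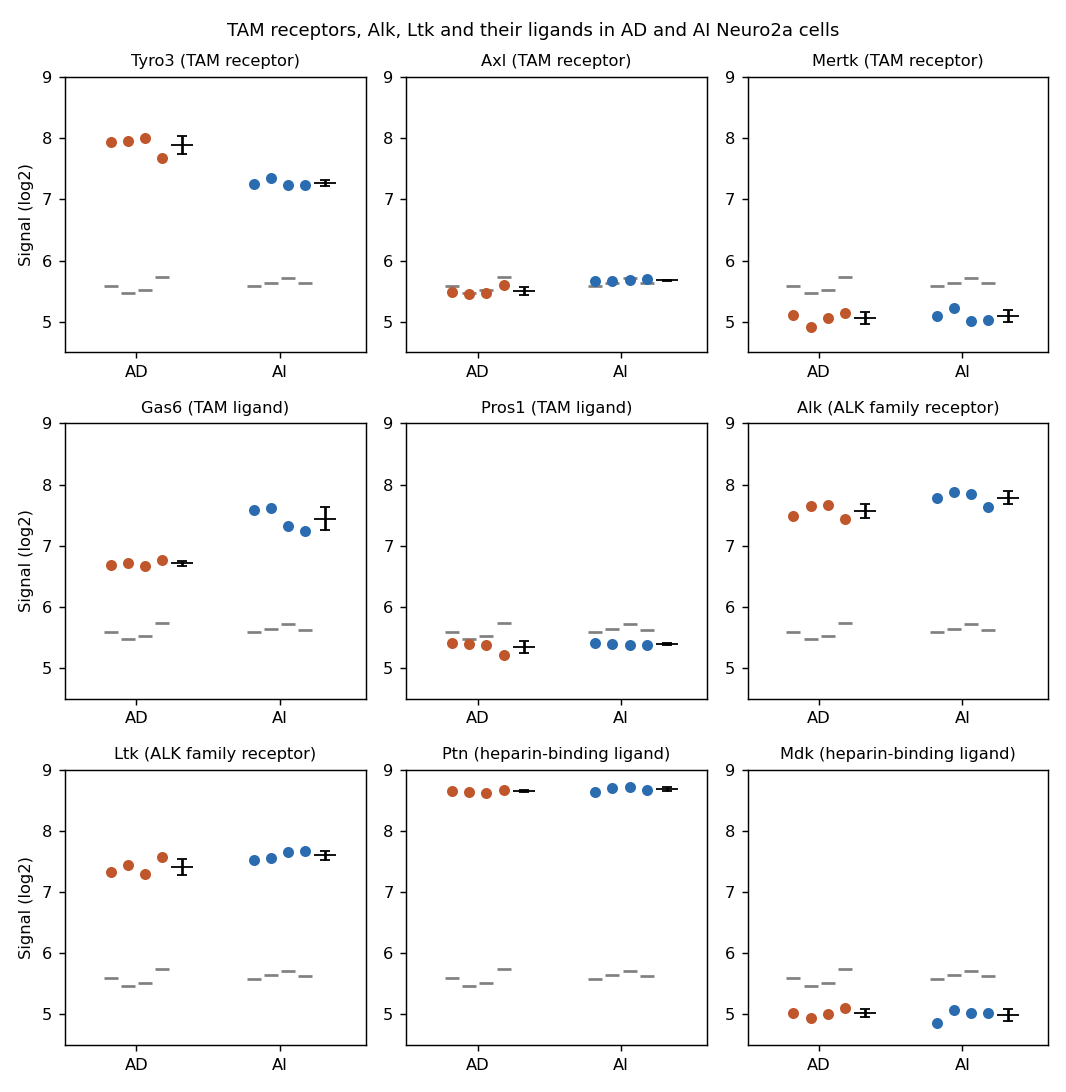
Array signal (log2) of the 9 genes, AD left and AI right. A dot stands for 1 array, replicates 1 to 4 from left to right, the black marks are means with SD (n = 4 each), and the grey dashes show the 95th percentile of olfactory receptor genes on the same array. Tyro3 averages 7.89 (AD) and 7.27 (AI), Gas6 averages 6.71 (AD) and 7.44 (AI), and Mertk, Pros1 and Mdk stay under the grey dashes.

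Tyro3, the TAM receptor expressed widely in neurons, had signals of 7.93, 7.95, 8.0 and 7.68 log2 in AD replicates 1 to 4, against 7.26, 7.34, 7.23 and 7.24 log2 in AI replicates 1 to 4. Every AD array lay above every AI array, and the gap between the lowest AD array and the highest AI array was 0.33 log2. AD cells averaged 7.89 ± 0.15 log2 and AI cells 7.27 ± 0.05 log2 (SD, n = 4 each), which is a 1.54-fold higher signal in AD cells. The log2 ratio was 0.62 (standard error 0.08, 95% interval 0.45 to 0.79, limma's p adjusted over all clusters by Benjamini-Hochberg = 0.000656). Of the 35556 clusters 433 had a larger ratio. The value stands just past the fold threshold, and without AD replicate 3 it was 0.5855, past it by a very small margin. AD replicate 4, low in the replication genes and in array weight, was also the AD array with the lowest Tyro3 signal. Without it the log2 ratio was 0.69. The part of the replication genes' difference, or of the quality of this array, in that of Tyro3 was not tested.

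Axl, a TAM receptor of mesenchymal and vascular cells that binds Gas6, had 5.48, 5.45, 5.48 and 5.59 log2 in AD replicates 1 to 4, against 5.68, 5.67, 5.68 and 5.70 log2 in AI replicates 1 to 4. All AI arrays lay above all AD arrays, but by a gap of 0.08 log2 and at the level of the olfactory receptor genes. The log2 ratio was -0.18 (standard error 0.05, adjusted p = 0.0395 from limma), a 1.13-fold higher signal in AI cells that did not reach the fold threshold. At any fold 1 of the 9 genes was higher and 2 were lower in AD cells, where 8.5% of all clusters were higher, 9.62% lower and 18.1% either. Over 19 alternatives the adjusted p of Axl ranged between 0.0105 and 0.209. Mertk, the receptor best known from phagocytes and the retinal pigment epithelium, lay at 4.92 to 5.14 log2 in AD arrays and at 5.01 to 5.23 log2 in AI arrays. The groups overlapped, with a log2 ratio of -0.03 (95% interval -0.20 to 0.13, adjusted p = 0.815 from limma).

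Gas6, the ligand that binds all TAM receptors, had 6.69, 6.72, 6.68 and 6.77 log2 in AD replicates 1 to 4, against 7.59, 7.62, 7.32 and 7.25 log2 in AI replicates 1 to 4. The AD arrays lay close together and below every AI array, whereas the AI arrays spread over 0.37 log2, with replicates 1 and 2 above replicates 3 and 4. The gap between the groups was 0.48 log2, larger than either group's own range. AD cells averaged 6.71 ± 0.04 log2 and AI cells 7.44 ± 0.19 log2 (SD, n = 4 each), which is a 1.66-fold higher signal in AI cells. The log2 ratio was -0.73 (standard error 0.09, 95% interval -0.93 to -0.53, adjusted p = 0.000615 from limma), and 536 clusters had a lower one. Without AI replicate 2 it was -0.67, and without AI replicate 4 it was -0.80. Pros1, the gene of the anticoagulant protein S and the other ligand, which binds Tyro3 and Mertk, lay at 5.21 to 5.41 log2 in AD arrays and at 5.37 to 5.42 log2 in AI arrays. It was at background in both phenotypes and the groups overlapped (log2 ratio -0.04, 95% interval -0.18 to 0.09, adjusted p = 0.691 from limma).

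The stretches of 250 bases that precede the starts of Tyro3 and Gas6 are shown because these are the genes whose transcript level was called. They are from RefSeq on the mouse assembly GRCm38.p6, where 8 of the 9 genes had an entry (all but Mdk), at chr2:119799264-119799513 on the plus strand for Tyro3 and chr8:13494536-13494785 on the minus strand for Gas6. Both are written 5′ to 3′ on the gene's strand, and capitals mark the GC box GGGCGG, a site of Sp factors, or the E-box CANNTG, a site of helix-loop-helix factors, on either strand.
Tyro3: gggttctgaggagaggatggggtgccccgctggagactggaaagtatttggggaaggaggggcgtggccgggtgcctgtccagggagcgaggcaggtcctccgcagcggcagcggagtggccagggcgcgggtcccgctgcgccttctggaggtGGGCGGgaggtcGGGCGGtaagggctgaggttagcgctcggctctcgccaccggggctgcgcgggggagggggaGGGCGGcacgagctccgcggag
Gas6: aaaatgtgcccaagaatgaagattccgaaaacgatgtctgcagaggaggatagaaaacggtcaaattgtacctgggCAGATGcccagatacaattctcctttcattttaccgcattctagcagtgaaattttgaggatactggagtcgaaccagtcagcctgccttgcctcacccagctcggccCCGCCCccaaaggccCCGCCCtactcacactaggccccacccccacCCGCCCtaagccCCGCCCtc
The Tyro3 stretch held 3 GC boxes and no E-box, and the Gas6 stretch held 4 GC boxes, all on the opposite strand, and 1 E-box. Over 32851 promoter stretches of the same length, 32.7% held GGGCGG and 66.2% held CANNTG. The palindrome CACGTG, the form of this E-box bound by Myc and Max, was in none of the 8 stretches and in 6.02% of all. The AP-1 site TGANTCA was in none of the 8 and in 6.75% of all. G and C made up 73.2% of the Tyro3 stretch and 54.8% of the Gas6 stretch, where the median over all was 52.4%. A match is a match of letters only.

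Alk, the receptor tyrosine kinase mutated in familial neuroblastoma, had 7.49, 7.65, 7.67 and 7.44 log2 in AD replicates 1 to 4, against 7.78, 7.88, 7.85 and 7.64 log2 in AI replicates 1 to 4. It was well above background on all arrays, and AI replicate 4 lay below AD replicates 2 and 3. AD cells averaged 7.56 ± 0.12 log2 and AI cells 7.79 ± 0.11 log2 (SD, n = 4 each), with a log2 ratio of -0.23 (95% interval -0.40 to -0.05). The adjusted p from limma was 0.0747, and it ranged between 0.0346 and 0.276 over 19 alternatives, so a small difference was not settled, while the interval left out a 1.5-fold difference in either direction.

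Ltk, the close relative of Alk, had 7.32, 7.44, 7.29 and 7.57 log2 in AD replicates 1 to 4, against 7.52, 7.55, 7.65 and 7.67 log2 in AI replicates 1 to 4. AD replicate 4 was the highest AD array and lay above AI replicates 1 and 2. The log2 ratio was -0.19 (standard error 0.07, 95% interval -0.36 to -0.02, adjusted p = 0.115 from limma), and without AD replicate 4 it was -0.25 with an adjusted p of 0.0260 in limma, in a range of 0.0260 to 0.296 over 19 alternatives. No setting brought Alk or Ltk to 1.5-fold.

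Ptn had 8.66, 8.63, 8.62 and 8.66 log2 in AD replicates 1 to 4, against 8.64, 8.70, 8.71 and 8.66 log2 in AI replicates 1 to 4. It was well above background and varied little, by 0.04 log2 between the lowest and highest AD array and 0.07 log2 between those of AI cells. The groups overlapped and the log2 ratio was -0.03 (95% interval -0.14 to 0.07, adjusted p = 0.697 from limma), so that differences beyond 0.14 log2 lay outside the interval. Mdk was at 4.94 to 5.10 log2 in AD arrays and at 4.85 to 5.07 log2 in AI arrays, at the level of background in both. Its log2 ratio was 0.02 (95% interval -0.12 to 0.17, adjusted p = 0.857 from limma).

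**Figure D2:**
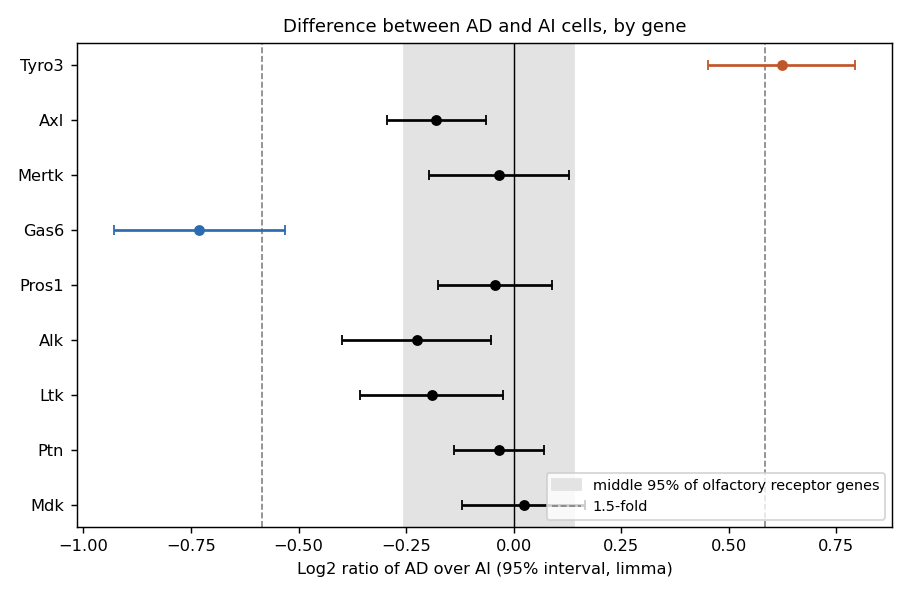
Log2 ratio of AD over AI for each of the 9 genes, with the 95% interval from limma. The grey band holds the middle 95% of 1027 olfactory receptor genes (-0.25 to 0.14) and the dashed lines mark 1.5-fold; Tyro3 at 0.62 lies to the right of the band, Gas6 at -0.73 to its left, and the others within it.

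Alk and Ltk were then set against each other within each array. Of 5 pairs of related genes compared, this was the only one with both genes above background on all 8 arrays, and the other 4 (Tyro3 with Axl, Tyro3 with Mertk, Gas6 with Pros1, Ptn with Mdk) are not given, since Axl, Mertk, Pros1 and Mdk lay at or under background. The log2 ratios of Alk and Ltk differed by -0.03 (95% interval -0.36 to 0.29, exact two-sided permutation p = 0.80, adjusted over the 5 pairs p = 0.80). With 4 AD against 4 AI arrays this test cannot go below 0.0286, and the pairs were chosen after the values were seen.

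Among the other ligands of these receptors none of 5 measured genes was called, where 3.93% of all clusters were. Alkal1 averaged 5.00 ± 0.11 log2 (AD) and 4.93 ± 0.08 log2 (AI), and Alkal2 averaged 5.32 ± 0.12 log2 (AD) and 5.2 ± 0.08 log2 (AI; SD, n = 4 each). Both were at background on all 8 arrays, with log2 ratios of 0.08 (adjusted p = 0.534 from limma) and 0.11 (adjusted p = 0.330 from limma). Tub, a tubby protein described as a TAM ligand, averaged 8.67 ± 0.03 log2 (AD) and 8.09 ± 0.08 log2 (AI; SD, n = 4 each), at a ratio of 0.58 on the log2 scale (adjusted p = 0.000168, limma). At 1.499-fold it missed the fold threshold, and it is named after its values were seen. Ptprz1, the receptor phosphatase for pleiotrophin and midkine, was at background, at 4.53 log2 (AD) and 4.52 log2 (AI), with a difference of 0.0093 log2 (adjusted p = 0.940 in limma).

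Of 16 other receptors or binding partners of pleiotrophin and midkine, none was higher, 2 were lower in AD cells and 14 were not called. Their median log2 ratio was -0.07. The called ones were Itgb3, the β3 integrin subunit, with -0.77, and Notch2, a Notch receptor, with -0.75. Notch2 lay at 7.74 to 8.05 log2 in AD arrays and at 8.58 to 8.69 log2 in AI arrays, without overlap (adjusted p = 0.000186 from limma). At any fold 1 of the 16 passed toward AD cells (Ncl) and 4 toward AI cells (Itgb3, Notch2, Ncan and Cspg5). Of all clusters 8.5% were higher and 9.62% lower in AD cells at any fold, and 2.53% were called lower. Cspg5 exceeded background on no AD array, averaging 5.45 log2 there.

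The genes that modify and shed TAM ligands and receptors were all above background. Of 6, none was higher, 1 was lower in AD cells and 5 were not called, where 1.39% of all clusters were called higher and 2.53% lower. At any fold 2 of the 6 were higher and 2 were lower in AD cells, where 8.5% and 9.62% of all clusters were. The called gene was Nqo1, a quinone reductase that can reduce vitamin K, with 6.75, 7.07, 6.88 and 7.01 log2 in AD replicates 1 to 4, against 8.46, 8.65, 8.55 and 8.28 log2 in AI replicates 1 to 4. Its log2 ratio was -1.56 (adjusted p = 1.68e-05 from limma), a 2.94-fold higher signal in AI cells. Ggcx, the carboxylase that vitamin K dependent proteins such as Gas6 need, had -0.43 (adjusted p = 0.00174 from limma) and Vkorc1, the epoxide reductase that recycles the vitamin, had 0.28 (adjusted p = 0.0140 from limma). Adam17, a protease that releases receptor ectodomains, had 0.36 (adjusted p = 0.00365 from limma). These 3 were below 1.5-fold and are named after their values were seen.

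Of 8 genes that expose phosphatidylserine or keep it inside the cell, such as scramblases and flippases, none was called, with a median log2 ratio of -0.14. At any fold none was higher and 4 were lower in AD cells (Xkr4, Xkr8, Plscr3 and Ano6), beside the same 8.5% and 9.62% of all clusters. Xkr4, at -0.58 on the log2 scale (adjusted p = 0.000691, limma), missed the fold threshold at 1.494-fold. Of 18 genes of the engulfment machinery and other phosphatidylserine receptors, none was higher, 2 were lower in AD cells and 16 were not called, with a median of 0.0085. Across all clusters 1.39% were called higher and 2.53% lower in AD cells. At any fold 2 of the 18 were higher and 3 were lower. Only 8 of the 18 exceeded background on all AD arrays and 8 on all AI arrays, so the median largely covers genes near background. For Mfge8, a secreted bridge between phosphatidylserine and integrins, the ratio was -0.66 on the log2 scale (adjusted p = 0.000902, limma), and for Abca1, a lipid exporter, -1.04 (adjusted p = 2.37e-05, limma). Mfge8 lay at 8.19 to 8.55 log2 in AD arrays and at 8.87 to 9.02 log2 in AI arrays.

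Of 29 adaptors and effectors that receptor tyrosine kinases recruit, none was higher, Pik3r3, a regulatory subunit of PI3K, was lower in AD cells (8.72 log2 in AD, 9.53 log2 in AI, log2 ratio -0.81), and 28 were not called, with a median of -0.04. Across all clusters 1.39% were called higher and 2.53% lower in AD cells. At any fold 3 of the 29 were higher and 7 were lower in AD cells, where 8.5% and 9.62% of all clusters were. Of 15 transcripts that Alk and Erk signaling are known to raise, Mycn, the oncogene amplified in many human neuroblastomas, was higher in AD cells (8.93 log2 in AD, 7.12 log2 in AI, log2 ratio 1.81), none was lower and 14 were not called, with a median of 0.03. At any fold 4 of the 15 passed toward AD cells (Mycn, Spry1, Etv1 and Ret) and 1 toward AI cells (Dusp4), again beside 8.5% and 9.62% of all clusters. The genes given for passing at any fold without a call were named after their values were seen. Of 51 other receptor tyrosine kinases, Ntrk3, a neurotrophin receptor, was higher (7.53 log2 in AD, 6.66 log2 in AI, log2 ratio 0.87), Pdgfrb, a PDGF receptor, was lower (7.03 log2 in AD, 8.81 log2 in AI, log2 ratio -1.78) and 49 were not called. That is near the 3.93% of all clusters called in either direction. At any fold 4 of the 51 were higher and 6 were lower in AD cells, where 8.5% and 9.62% of all clusters were. Only 18 of the 51 exceeded background on all AD arrays and 20 on all AI arrays, so many of the uncalled kinases were near background.

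**Figure D3:**
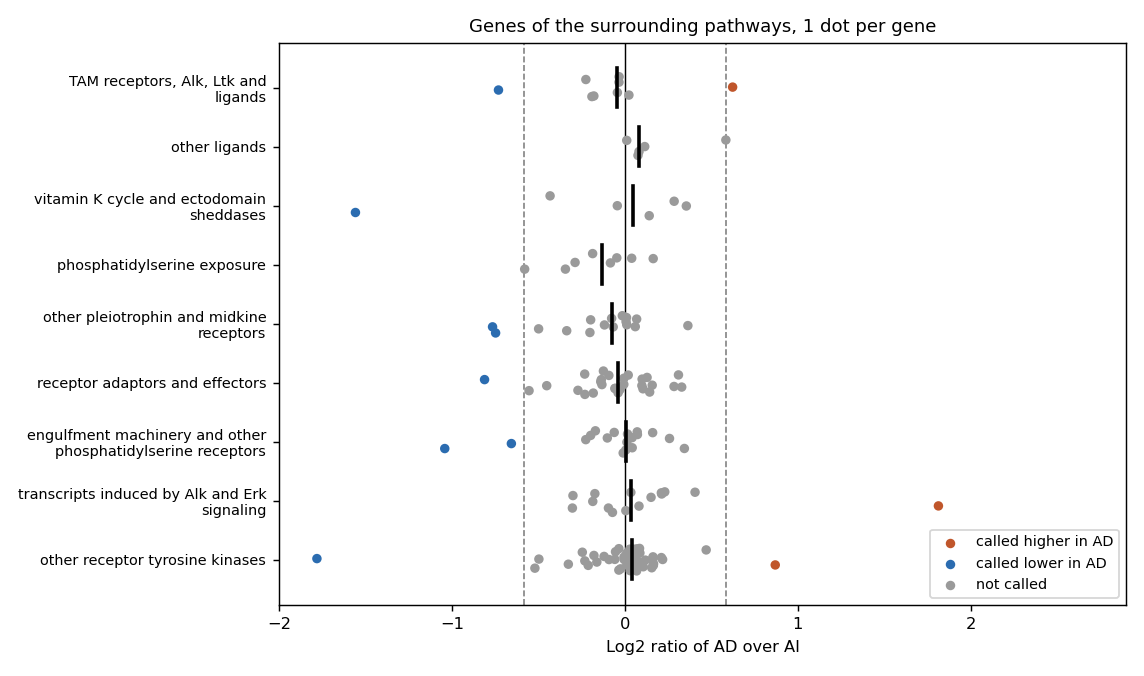
Log2 ratio of AD over AI for genes of the surrounding pathways, with 1 dot per gene, a black bar at the median of each list and dashed lines at 1.5-fold. Medians lie between -0.14 and 0.08, over lists that include genes at background. Nqo1 at -1.56, Abca1 at -1.04 and Pdgfrb at -1.78 are the lowest of their lists, and Mycn at 1.81 is the highest dot. Of all clusters 3.93% were called in either direction.

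The genes with a pattern over the 8 arrays most like that of Tyro3 were Ifrd2, an interferon-related developmental regulator, Hspbap1, a protein that binds a heat shock protein, and Folr1, a folate receptor. Their distances (Euclidean, over signals centred on each gene's mean) were 0.09, 0.12 and 0.13 log2 among 19937 genes, and their log2 ratios were 0.59, 0.61 and 0.60. Nearest to Gas6 were Slc9a7, a cation exchanger of the Golgi, Tenm4, a teneurin adhesion protein, and Slc40a1, the iron exporter ferroportin, at distances of 0.19, 0.21 and 0.21 log2, with log2 ratios of -0.67, -0.81 and -0.74. The arrays fall into 2 groups, so that a like pattern is largely a like difference between them.

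**Figure D4:**
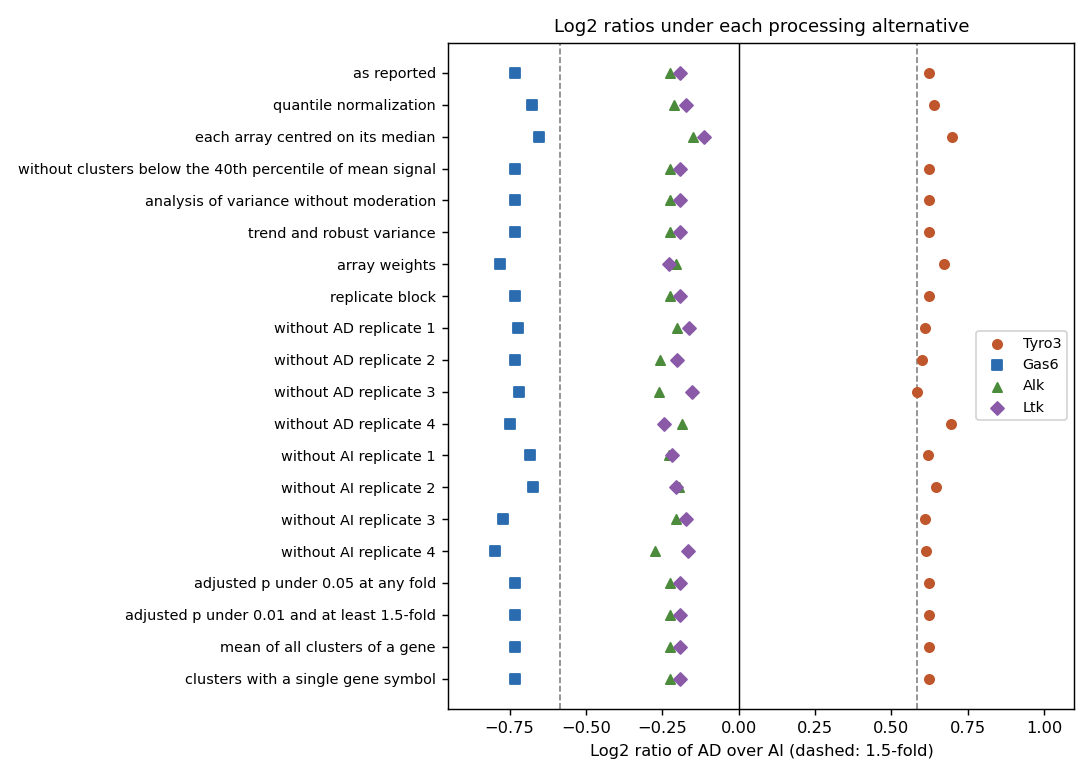
Log2 ratio of AD over AI of Tyro3, Gas6, Alk and Ltk under each processing alternative, 1 row per alternative and dashed lines at 1.5-fold. Tyro3 stays between 0.59 and 0.70 and Gas6 between -0.80 and -0.65, both past 1.5-fold in every row, while Alk and Ltk stay between -0.27 and -0.11. Tyro3 without AD replicate 3 is past it by a very small margin. Rows that change only the filter, test, threshold or gene summary repeat the reported ratio.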

How the data were processed

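RNA from 4 AD and 4 AI cultures was hybridized to Affymetrix mouse ST gene arrays, 1 array per sample. The labels call replicates biological and the methods speak of replicate hybridizations, so p-values measure the spread between these arrays. The authors' deposited table holds log2 signals after GCRMA; the submitters' notes name Partek 6.5 and GCRMA. The methods used 3 normalizations, of which the table holds 1. The log2 scale was read from the range of the values, and the genome build is not given in the sources used here. Arrays give no counts, so the number of arrays limits the precision.

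All 35556 transcript clusters were fitted by group in R 4.3.3 with limma 3.58.1 (lmFit, then eBayes; Benjamini-Hochberg adjustment). A gene is represented by its brightest cluster with a single symbol (21789 clusters, 19938 genes). Genes and lists were chosen with earlier results of these data known. Named are the 9 genes, called genes of the lists, Alkal1, Alkal2 and Ptprz1, and the 3 nearest patterns of each called gene; uncalled list genes that passed at any fold, and a few others marked so, were named after their values were seen. Exact permutation tests, the comparison of related genes and plots used Python 3.11.15 with scipy 1.17.1, pandas 2.3.3, numpy 2.4.6 and matplotlib 3.10.9. The fit was tested on simulated data with independent normal noise, with 50 clusters changed at each of 1.75-, 2-, 4- and 8-fold. Of these 92%, 88%, 100% and 100% were recovered. Changes below 1.75-fold, such as those of Tyro3 and Gas6, were not simulated. In all 19 alternatives were tried: other scalings between arrays, filters, moderation, thresholds, gene summaries, the replicate number as a block, single-symbol clusters only, and leaving out each array.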

Additional observations from a re-analysis of the deposited data

How the results depend on the processing

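Tyro3 and Gas6 kept their direction and their call under all 19 alternatives. With single arrays left out the log2 ratio was 0.59 to 0.69 for Tyro3 and -0.80 to -0.67 for Gas6. In the others it was 0.62 to 0.70 for Tyro3 and -0.78 to -0.65 for Gas6. Only the scalings, weights on the arrays and left-out arrays could move these ratios. Filters, moderation, thresholds, the block, gene summaries and single-symbol clusters repeat them, and the rule at any fold cannot lose a call. Without AD replicate 3 the call of Tyro3 held by a very small margin (0.5855). The counts of 1 gene higher and 1 lower in AD cells held likewise, except that 2 were lower at any fold, with Axl added at -0.18, and leaving out single arrays gave 1 and 1 throughout. Over all clusters 1396 were called, 6444 at any fold, and 912 of the single-symbol clusters alone, which are fewer clusters tested (an alternative added after seeing the data); leaving out single arrays gave 1217 to 1636. Centring each array on its median turned the sign of Mertk (0.043), Pros1 (0.033) and Ptn (0.042), none of them called. Leaving out single arrays gave -0.061 to 0.014 for Mertk, -0.066 to 0.0028 for Pros1 and -0.023 to 0.049 for Mdk. The cause of these changes of sign was not tested. Replicate numbers are shared by AD and AI arrays, and the sample titles do not say whether they pair them. Same-numbered arrays' deviations correlated at -0.11, 0.08, 0.0048 and -0.17, and 1 of 8 arrays correlated best with its own number. Whether such arrays shared a culture or hybridization batch was not tested. With the replicate number as a block 1352 clusters were called, and no call among the 9 genes changed. The filter on dim clusters dropped Mertk, Pros1 and Mdk, which gave no value there. Signal near background limits what can be said of Axl, Mertk, Pros1 and Mdk.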

Other observations

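Ltk and Tyro3 are near neighbors on mouse chromosome 2, with Rpap1, an RNA polymerase II associated gene, between them in the RefSeq annotation. Ltk had a log2 ratio of -0.19 (7.41 ± 0.13 log2 for AD and 7.60 ± 0.07 log2 for AI, SD, n = 4 each), and the nearest gene on either side had a positive ratio. Rpap1 had 0.44 (7.80 ± 0.17 log2 for AD and 7.36 ± 0.07 log2 for AI, adjusted p = 0.00767 from limma), Tyro3 had 0.62, and Itpka, an inositol phosphate kinase on the far side of Ltk, had 0.40 (6.08 ± 0.19 log2 for AD and 5.69 ± 0.02 log2 for AI, adjusted p = 0.0138 from limma). Mga, a partner of Max on the far side of Tyro3, had -0.01 (adjusted p = 0.971 from limma). Of these only Tyro3 was called. Beside Axl on chromosome 7 lies Cyp2s1, a cytochrome P450, at 5.75 ± 0.11 log2 for AD and 8.08 ± 0.21 log2 for AI, a ratio of -2.33 on the log2 scale (adjusted p = 2.41e-06 from limma), where Axl itself had -0.18. Cyp2s1 in AD cells and Itpka in AI cells averaged near background, which lay at 5.47 to 5.73 log2 on AD arrays and 5.58 to 5.71 log2 on AI arrays. Their ratios are thus set against a signal near background. Neighbors on both sides of each of the 9 genes were looked up after the values of the 9 genes were seen. Apart from Tyro3, only Cyp2s1 among them was called. Across all clusters 3.93% were called in either direction.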
